A study of Caenorhabditis elegans with 2 samples.

Results

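The gene nas-30 (WBGene00003548) of Caenorhabditis elegans encodes a secreted zinc metalloprotease of the astacin family, and its start site is the nearest to the nuclear peak of highest signal in a chromatin immunoprecipitation with sequencing (ChIP-seq) experiment on the homeodomain protein CEH-43. The gene was chosen by that signal value, so its rank is a description and not a finding, and no test was run on it. It is 1 of 19973 nuclear protein-coding genes in the annotation used. All summits from 10000 bp upstream of its start to its end were taken from the 4 peak lists. They numbered 1 of 998 in the thresholded list, 7 of 30000 in the relaxed list from both replicates, 4 of 29979 in that of replicate 1 and 6 of 26127 in that of replicate 2.

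The embryos were of strain OP699, which has the mutation unc-119(tm4063) and the integrated transgene wgIs699, made of ceh-43::TY1::EGFP::3xFLAG and an unc-119(+) rescue gene. They were collected by egg bleaching, had a stated age of 3 hours, and were of mixed stage and mixed sex. Sonicated chromatin of whole embryos, in fragments of 200 to 800 bp, was pulled down with an anti-GFP antibody in 2 biological replicates of 1 group. The transgene brings further ceh-43 sequence into the genome beside the native gene, and every sample carries it. Both replicates were set against the same control alignment. No strain without the tag was analysed here. The thresholded list is drawn from the list of both replicates, so these 2 are not independent, and neither is independent of the single replicates. Read depth is unknown from peak lists, and its limit on the values could not be given.

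Astacins are secreted zinc proteases that cut extracellular proteins. In C. elegans this large family includes enzymes of cuticle collagen processing and of moulting and hatching. CEH-43 is a homeodomain protein related to fly Distal-less. Proteins of this kind act in head and epidermal development and, in the worm, in dopamine neurons. Homeodomains of this family bind short AT-rich sites, whose usual core was searched here as TAATTR, where R is A or G.

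On the ce11 assembly nas-30 lies on the plus strand of chromosome I, at I:938483-947710. It spans 9228 bp, has 2 annotated transcripts, and its longest transcript has 15 exons. The strongest site was intergenic, 4968 bp upstream of this start. Its peak in the thresholded list spanned I:933346-933691, with the summit at I:933515. In the list from both replicates its signal value, the authors' peak score, was 1516. Replicate 1 gave 966.7 and replicate 2 gave 788.7. No source used here states the scale of this score, so values are compared only within a list. Ratios given below are ratios of the score and may differ from ratios of enrichment. The site ranked first among nuclear peaks in each list. Its overall ranks were 6, 6 and 5 in the lists from both replicates, replicate 1 and replicate 2, since 5, 5 and 4 mitochondrial peaks lay above it. The −log10 q-value of the site was 2.12 in the list from both replicates, the highest there, and 867 peaks shared it.

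The replicates placed the site almost identically. The summits of the 3 relaxed lists fell within 2 bp of each other. The peak was 346 bp wide in the list from both replicates, 352 bp in replicate 1 and 330 bp in replicate 2. These widths were below the usual fixed width, which was 456 bp in the thresholded list. There 122 of 975 nuclear peaks (12.5%) were narrower than the nas-30 peak.

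Its lead over the peak ranked just after it was small. In the list from both replicates the ratio was 1.1, 1516 at nas-30 against 1378 at the next nuclear peak, upstream of ceh-43. The same ratio was 1.24 in replicate 1, 966.7 at nas-30 against 779.6. It was 1.1 in replicate 2, 788.7 at nas-30 against 714.4. The peak just after nas-30 was not the same one in both replicates, a ceh-43 peak in replicate 1 and the W03C9.1 peak in replicate 2. Set against the median of the nuclear thresholded peaks, 185.4, the signal at nas-30 was 8.18-fold higher. Against the median of the strongest nuclear peaks of the same number in each replicate, it was 10.2-fold higher in replicate 1 and 7.94-fold higher in replicate 2.

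**Figure D1:**
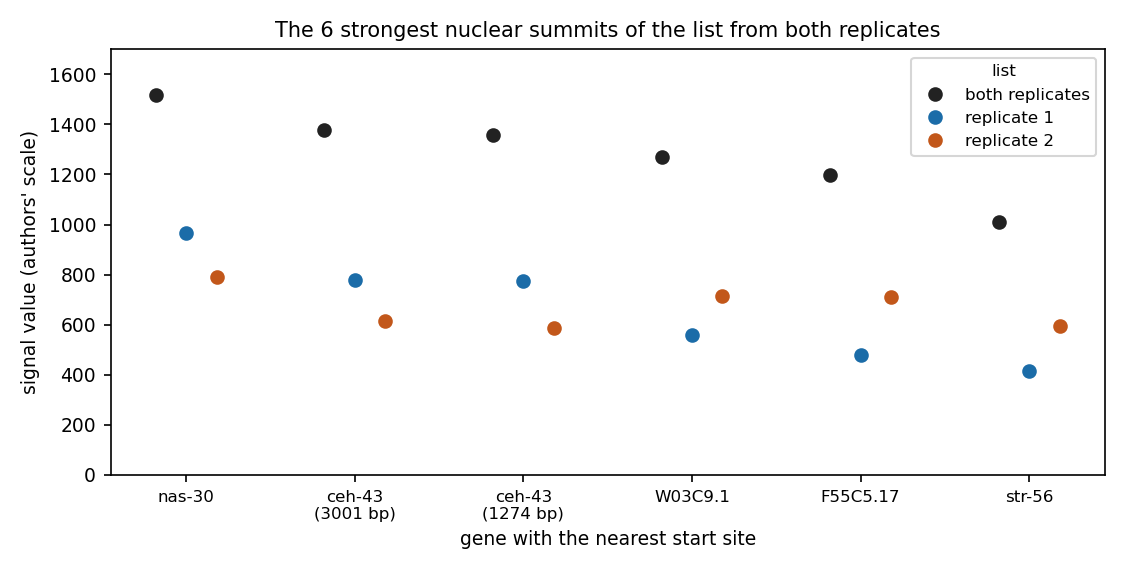
Signal value (vertical axis, the authors' scale) of the 6 nuclear summits of highest signal in the list from both replicates. Each has 1 point per list and is named by the protein-coding gene with the nearest start site. The nas-30 summit is highest in all 3 lists, and the order of the other 5 differs between replicate 1 and replicate 2.

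The other 5 strongest nuclear peaks had no near copies elsewhere in the reference genome, which does not include the transgene. Their order changed with the replicate. Of them, 2 lay upstream of ceh-43 itself, with nuclear ranks 2 and 4 for the first in replicates 1 and 2, and 3 and 6 for the second. The peaks nearest to W03C9.1, F55C5.17 and str-56, named by protein-coding starts only, had no TAATTR within 50 bp of the summit. They lay 1306, 1100 and 1402 bp from those starts. Their windows of 101 bp were 64.4%, 62.4% and 61.4% G or C, against a median of 46.5% over the nuclear thresholded summits. The part of the ceh-43 transgene in the signal at the ceh-43 sites was not tested. In the list from both replicates and in replicate 1, both ceh-43 sites were the nearest to nas-30 in signal. In replicate 2 the W03C9.1 and F55C5.17 sites, at 714.4 and 712.2, were nearer than the ceh-43 sites, at 613.8 and 586.8. The bases within 50 bp of both ceh-43 summits are shown, from RefSeq (WBcel235, plus strand), and capitals mark TAATTR on either strand.
ceh-43 site 3001 bp upstream, chrIII:4452894-4452994: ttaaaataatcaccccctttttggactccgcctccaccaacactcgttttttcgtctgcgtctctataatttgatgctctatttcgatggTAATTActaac
ceh-43 site 1274 bp upstream, chrIII:4451167-4451267: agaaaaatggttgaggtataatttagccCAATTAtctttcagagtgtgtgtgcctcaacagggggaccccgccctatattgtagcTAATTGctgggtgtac
The first holds 1 core, starting 40 bp after the summit. The second holds 2 cores, starting 22 bp before and 35 bp after the summit. Soft-masking, the mark that the RefSeq genome gives to repeats, covered 16.8% of the first window and 0% of the second.

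The remaining summits in the nas-30 window were weak and differed between the replicates. In the list from both replicates the strongest of these 6 lay in an intron 6068 bp after the start, with a signal of 74.89, rank 6122 and a −log10 q-value of 0.461. The nas-30 upstream site was 20.2-fold above it. In replicate 1 the strongest of 3 others lay 211 bp before the start, with a signal of 29.65 and rank 11747, 32.6-fold below the upstream site. In replicate 2 the strongest of 5 others lay in an intron 6079 bp after the start, with a signal of 58.33 and rank 2634, 13.5-fold below. A second intronic summit of replicate 2, 2114 bp after the start, had a signal of 54.46 and rank 3372.

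Of the summits in the window, 1 was shared between the replicates within 100 bp, the upstream site. A summit close to the nas-30 start, at 127 bp before it, was found in the list from both replicates with a signal of 52.92 and rank 15620. This is close to the median of that whole list, 53.85, and its −log10 q-value was 0.13. The weakest summits of the window had signals of 39.75, 22.6 and 30.72 in the lists from both replicates, replicate 1 and replicate 2. The upstream site is therefore the only 1 of the window in the thresholded list. The nearest other summit in the list from both replicates was 3512 bp away, with a signal of 41.93. The nearest other thresholded summit on the chromosome was 100820 bp away, with a signal of 140.1.

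**Figure D2:**
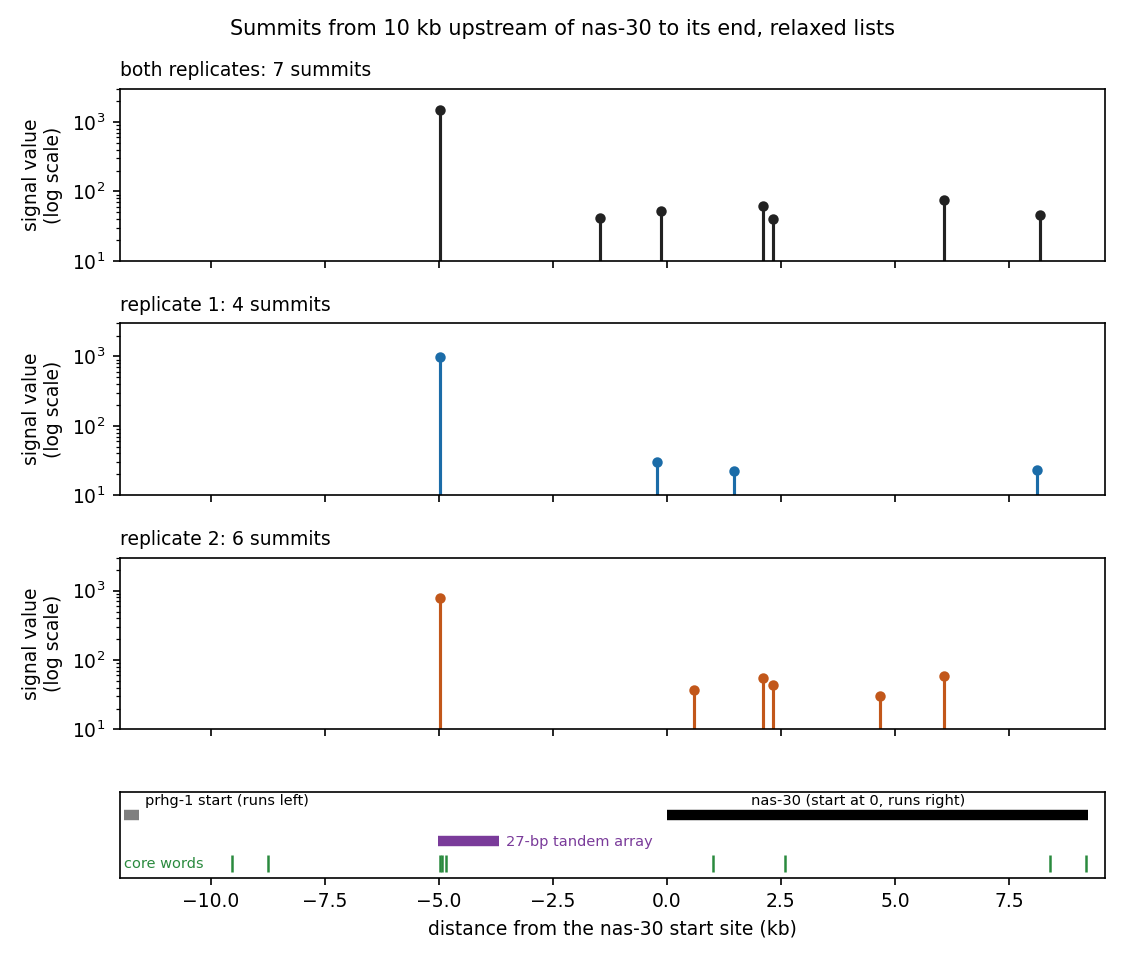
Signal value (vertical axis, log scale) of each summit in the 3 relaxed lists, by distance from the nas-30 start site in kb, with genes, the tandem array and matches of the core word TAATTR drawn beneath. The signal value of the summit 4968 bp upstream is 13.5-fold to 32.6-fold that of the strongest other summit of its own list.

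The window around nas-30 held few homeodomain cores, and a cluster of them lay in the peak. The 19228 bp of the window held 9 matches of TAATTR on either strand, 0.468 per kb against 1.43 per kb over the genome. All 9 were of the form TAATTG or its reverse complement, and TAATTA was not found. The peak held 3 of them, starting 12 bp before and 42 and 123 bp after the summit. Within 50 bp of the summit lay 2. Among nuclear thresholded summits, 313 of 975 (32.1%) had at least 1 core within 50 bp and 119 of 975 (12.2%) had at least 2. Over the whole peak interval, 204 of 975 (20.9%) had 3 or more. None of the 6 other summits of the list from both replicates, nor any other summit of the replicates in this window, had a core within 50 bp.

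Other words within 50 bp of the nas-30 summit were 3 of TAAT, 1 of TGATAA, the core of GATA factor sites, and 1 of GAGAGA, each searched on both strands. The matches of TAAT overlap those of TAATTR where both are found. Among all nuclear thresholded summits the share with each word was 58.5%, 3.28% and 14.4%. The words CCGGAA of ETS factors, TGATNNAT of PBX and HOX factors, CANNTG of basic helix-loop-helix factors and TGACTCA of AP-1 were not found in this window of 101 bp.

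The 3 cores of the peak were spaced 54 and 81 bp apart, multiples of 27 bp. They lie in a tandem array, a run of copies of one unit, which was looked at after the values were seen. The soft-masked run covers I:933476-934809, 1334 bp. Each base equals the base 27 bp further on at 87.8% of positions and the base 81 bp further on at 93.4%. The array thus holds about 49.4 units of 27 bp. All 3 cores of the array lie within 167 bp of its left edge, the edge away from nas-30.

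The nas-30 summit sits at that edge of the array. It is 39 bp inside the left edge and 1294 bp from the right one. The peak covers 130 bp of the sequence to the left of the array and 216 bp of the array itself, 16.2% of its length. No other summit of any list lies in the array. The window of 101 bp at the nas-30 summit was 89.1% soft-masked, against a median of 14.9% over the nuclear thresholded summits, of which 36 of 975 (3.69%) were at least as high. In all, 127 of 975 (13%) were soft-masked over at least 50% of their window. Of the 126 others among these, the one with the highest signal had 536.6 and nuclear rank 30. It was the only 1 of the 126 among the 50 strongest nuclear summits.

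Most of the other nuclear summits had no near copy. The same window at nas-30 gave 225 other alignments to the genome at 90% identity or more over at least 50 bp. Other units of its own array are included. Overlapping alignments were not merged, so in a tandem array the count can exceed the number of separate places. At 797 of 975 nuclear summits (81.7%) there was no such match, and 17 (1.74%), nas-30 among them, had as many. A count of at least 100 was found at 18 other summits, whose highest signal was 307.3, nuclear rank 150. No source used here states how reads that fit several places were treated. The part of the repeat in the signal at nas-30 was not tested.

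**Figure D3:**
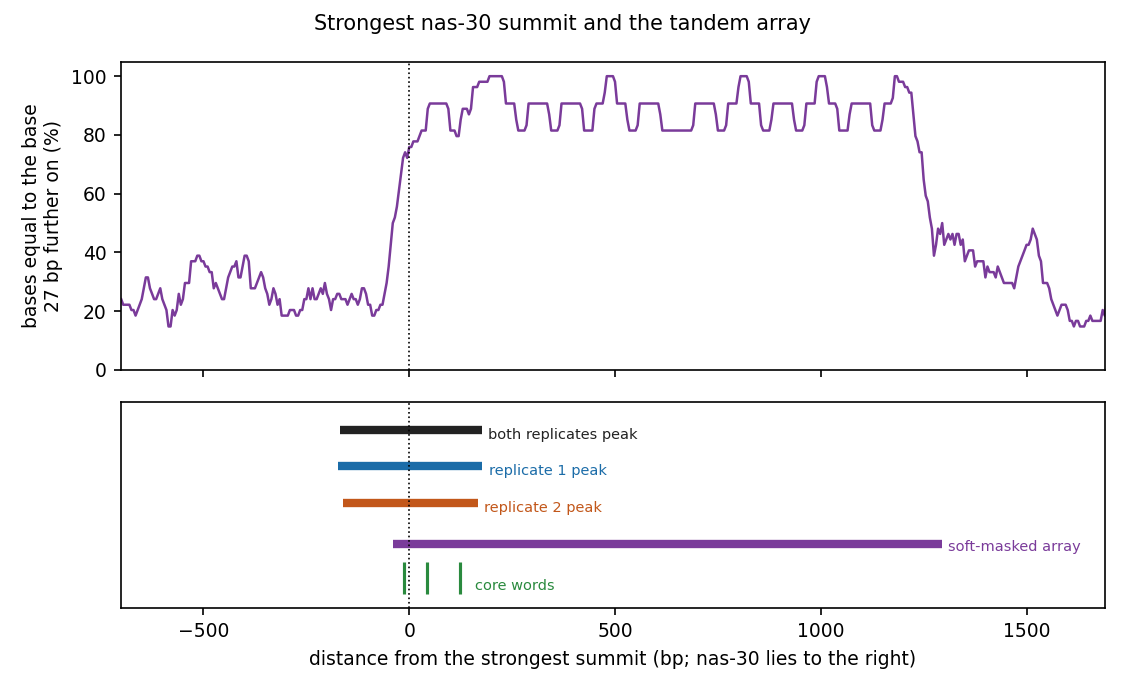
Above, the share of bases equal to the base 27 bp further on, in windows of 54 bp (vertical axis, percent), by distance from the strongest nas-30 summit in bp. Beneath are the peak interval in each list, the soft-masked array and matches of the core word TAATTR. The summit lies 39 bp inside the left edge of the array, and the 3 cores are near that edge.

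The repeat occurs elsewhere in the genome, and no other array had a signal near that of the nas-30 site. Matches of the array were merged into runs, which gave a run of 1466 bp at nas-30 and 38 other arrays of at least 200 bp, on 6 chromosomes. The others were 207 to 7945 bp long, with a median of 1711 bp, and 21 were longer than the one at nas-30. A thresholded summit lay in or within 200 bp of 3 of the 38. Over these 89275 bp that is 0.0336 thresholded summits per kb, against 0.00972 per kb over the nuclear genome, where so few summits leave the rate imprecise. Summits of the list from both replicates numbered 17 there, 0.19 per kb against 0.299 per kb over the nuclear genome. In the list from both replicates 11 had a summit, and the number was 13 for replicate 1 and 14 for replicate 2. The highest signal at another array in the list from both replicates was 279.5, rank 214, against 1516 at nas-30.

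The 3 thresholded summits at other arrays were far weaker than the one at nas-30. The summit nearest to Y54G2A.48, on chromosome IV, had a signal of 279.5 and lay 159 bp inside an array of 2038 bp. It had 2 cores within 50 bp and ranked 281 and 222 in replicates 1 and 2. The summit nearest to C24H10.4, on the X chromosome, had a signal of 223.1 and lay 146 bp inside an array of 1020 bp with no core. The summit nearest to fbxa-55, on chromosome III, had a signal of 187.7 and lay 68 bp inside an array of 474 bp, also with no core. In an array that short no place is far from an edge. The parts of the 38 arrays over 200 bp from an edge, 59722 bp in all, held 11 summits of the list from both replicates, 0.184 per kb against 0.299 per kb over the nuclear genome.

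The array at nas-30 had 3 cores, and 5 of the 38 others had at least 1. In the list from both replicates 4 of the 5 arrays with a core had a summit, against 7 of the 33 without. In replicate 1 the counts were 5 of 5 with a core and 8 of 33 without, and in replicate 2 they were 4 of 5 and 10 of 33. A thresholded summit was found at 1 of 5 and 2 of 33. Of the 5 arrays with a core, 2 lie close together in the nas-29 window, at II:5144307-5144595 and II:5144951-5146777. The 5 were 289 to 3765 bp long. These counts take no account of array length and were not tested. The most cores, 97, lay in an array on chromosome III with a summit in replicate 1, of signal 30.71 and rank 10739, and none in the other lists.

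**Figure D4:**
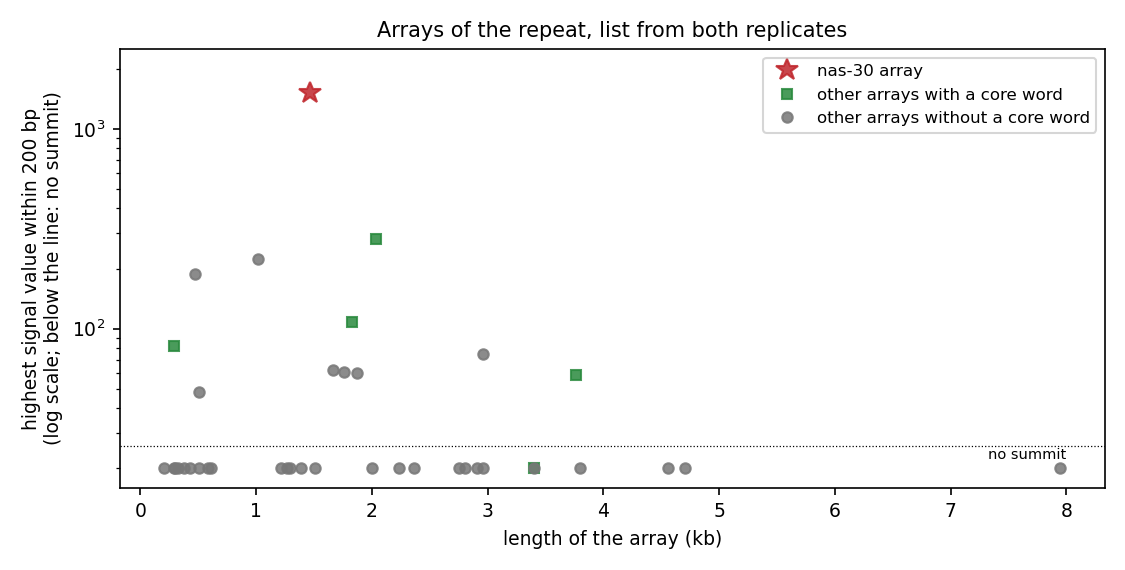
Highest signal value within 200 bp of each array of the repeat (vertical axis, log scale, list from both replicates) by array length in kb, with arrays without a summit drawn beneath the dotted line. The array at nas-30 is at 1516, and the highest of the 38 others is at 279.5.

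The site lies between 2 divergent genes. The intergenic region from nas-30 to prhg-1 (WBGene00022391), a gene on the minus strand annotated as a pleckstrin homology domain protein of family G, is 11566 bp long. The summit is 4968 bp from the nas-30 start and 6599 bp from the prhg-1 start, and it is upstream of both. Of 604 nuclear thresholded summits outside protein-coding genes, 90 (14.9%) lay in a gap at least as long, and the median gap was 2399 bp. Of all 975 nuclear summits, 122 (12.5%) were at least as far from the nearest protein-coding start, and the median distance was 1108 bp. A peak list does not say which of these genes, if any, the site acts on.

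No start of another gene is nearer. The next ones are the small noncoding RNA genes named Y95B8A.15, on both strands within nas-30, with starts 9032 and 9137 bp from the summit. The noncoding gene Y95B8A.13, at 12512 bp, and a tRNA gene, at 12600 bp, also lie within nas-30. Beyond nas-30 lies mig-1, which encodes a Frizzled receptor for Wnt signals. It runs towards nas-30, and its start is 23941 bp from the summit. On the other side Y95B8A.4 starts 26067 bp away, past prhg-1.

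The flanking genes had weaker summits of their own. The strongest in mig-1 lay 1066 bp after its start in the list from both replicates, with a signal of 115.3, rank 1679 and a −log10 q-value of 1.76. It ranked 2039 in replicate 1, 957 bp after the start, and 1382 in replicate 2, 1124 bp after it. The strongest summit in prhg-1 had a signal of 51.04 and rank 16910 in the list from both replicates. Neither gene had a thresholded summit within its own bounds, and the only 1 from 10000 bp upstream of prhg-1 to its end was the site it shares with nas-30.

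Most protein-coding genes, 17604 of 19973, had no thresholded summit in such a window. Of the 19973 protein-coding genes, 2369 (11.9%) had at least 1 and 2091 had exactly 1. Among the astacins, 39 names and 40 gene identifiers with toh-1, hch-1 and dpy-31 counted by their RefSeq product, 4 (10%) had one. The share with a thresholded summit is close to that of all genes. The 4 include nas-30, which was chosen by the signal of its summit, so its place among them was fixed in advance. Another 25 of the 40 had a summit only in the relaxed list from both replicates, as had 15130 of the 19973 genes (75.8%).

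The astacins with a thresholded summit differed widely in signal. After nas-30 at 1516, nas-10 had 237.7, rank 305, at 404 bp before its start. The gene dpy-31, a procollagen protease, had 159.8, rank 712, at 252 bp after its start, with 3 cores within 50 bp. The gene nas-37, which acts in moulting, had 146.1, rank 896, at 9764 bp before its start, where the start of ZC506.1 was nearer. At nas-10 and nas-37 no core lay within 50 bp of the summit. Of 15 metalloproteases of other families, 2 (13.3%) had a thresholded summit. These were adt-1 at 379.3, nearer to the start of ugt-50, and sup-17, the worm ADAM10, at 306.5, nearer to that of mfb-1.

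Other astacins also lay by arrays of the repeat. Arrays were found in the windows of 3 of the 40 astacins, nas-30, nas-29 and nas-6. Over all protein-coding genes the count was 91 of 19973 (0.456%). The arrays were defined by their match to the one at nas-30, so nas-30 was counted by construction. Best identity was 87.6% and 88% at the nas-29 arrays of 1827 and 289 bp, and 83.5% at the nas-6 array. Whether arrays are more frequent at astacins was not tested. The window of nas-29 holds arrays of 1827 and 289 bp, with 24 and 5 cores. The highest signals there in the list from both replicates were 107.7, rank 2047, and 82.39, rank 4608, and neither was thresholded. The array at nas-6, of 1214 bp, had no core and no summit in that list.

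The sites most like nas-30 in their nuclear ranks in both replicates were looked for among the 148 thresholded nuclear summits over 2000 bp upstream of the nearest start, by the Euclidean distance of log2 ranks. The ceh-43 site at 3001 bp had the smallest distance, 2.24. A further ceh-43 site at 6879 bp upstream, with a signal of 649.1 and ranks 15 and 28 in replicates 1 and 2, had 6.20. A site 5730 bp upstream of F15G9.5, with a signal of 579.2 and ranks 30 and 23, had 6.67. In the reference genome the F15G9.5 site had 18 near-copy alignments elsewhere against 225 at nas-30, and both ceh-43 sites had none.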

How the data were processed

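The authors deposited 4 peak lists in narrowPeak layout on ce11 (the same assembly as WBcel235). Per the deposited text files, each relaxed list came from a replicate's alignment, or from both, and 1 control alignment, and the thresholded list from an irreproducible discovery rate step on these. The signal value, the −log10 q-value and the summit of each peak are as the authors deposited them. No source used here names the aligner, peak caller, cutoffs or type of control.

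Peaks were ranked by signal within each list. Genes came from Ensembl release 115 and sequence from RefSeq. Coordinates are 1-based. Words were searched on both strands. The bases of the nas-30 region are not reported here. Copies were found with BLAST+ 2.17.0 (e-value at most 1e-05). Matches within 200 bp were merged to define arrays, but not for the counts of near copies. Python 3.11.15 and NumPy 2.4.6 were used. The word search, gene windows and ranks were tested on simulated data, and the copy and array counts were not. The gene, the lists and the words were chosen with earlier results of these data known, and the arrays after seeing the site. The rule named the 5 other strongest nuclear summits, the 3 most alike and the metalloproteases with a thresholded summit. No p-value was computed. Alternatives were other window lengths, word windows, words and the 499 strongest summits, and each replicate left out. Nothing says that the replicates were separate cultures.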

Additional observations from a re-analysis of the deposited data

How the results depend on the processing

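Of 46 alternative settings, 26 left the value within the limits set for it and 20 moved it. With 20000 bp upstream, the nas-30 window held 11 summits in the list from both replicates and 10 in replicate 2. The share of genes with a thresholded summit was 7.94% with 5000 bp upstream, 18.8% with 20000 bp and 6.25% among the 499 strongest summits. It was 11.3 to 11.7% with either replicate left out. Astacins with a summit, nas-30 always among them, numbered 2 among those 499. They numbered 2 to 4 with a replicate left out, 2 being the count without replicate 1. The rank of the nas-30 site was 6 with mitochondrial peaks counted. It had 1 core within 25 bp, and 0 of TAATTA within 50 bp. The share of nuclear summits with the word was 20.8% within 25 bp, 44.8% within 100 bp, 26.1% among those 499, 18.5% for TAATTA and 58.5% for TAAT. For TAATTR within 50 bp it was 23.9% without replicate 1 and 40.6% without replicate 2. The distance to the nearest start and the number of shared summits did not move under the alternatives run. With matches of 90% identity or more, a setting added after seeing the data, 21 other arrays were found, 1 of them with a thresholded summit. No paired analysis was possible because there is 1 group. Read depth is unknown, so weak summits may be missed.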
